A study of Homo sapiens with 10 samples.

Results

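HDAC4, HDAC5, HDAC7 and HDAC9 are the class IIa histone deacetylase genes, and the peaks of methylated DNA that lay in their gene bodies or within 2 kb of them are described here. These are 4 of the 19974 protein-coding genes of the gene table used. The peaks came from methylated DNA immunoprecipitation and sequencing (MeDIP-seq), in which an antibody against 5-methylcytosine captures sonicated genomic DNA and captured fragments pile up where methylated cytosines are dense. All samples were HEK293T, a human embryonic kidney cell line. The conditions were a knockdown of KCNQ1OT1_K, here K-KD, and EV, followed by 2 knockouts, K rep KO with K non-rep KO, and WT. KCNQ1OT1 is a long non-coding RNA of an imprinted domain on chromosome 11. What EV, K, rep and non-rep stand for is not spelled out in the labels, nor is whether a knockout is 1 clone. Each of the 5 conditions had 1 immunoprecipitated library and 1 input library, and 1 peak list, so no value below has a replicate and no p-value is given. Over the 5 lists HDAC4 held 186 peaks, HDAC5 25, HDAC7 10 and HDAC9 7. HDAC4 was singled out because its peak numbers in earlier results of these lists differed widely from WT, so its numbers are given as a description, and they support nothing further.

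Histone deacetylases remove acetyl groups from lysines of histones and other proteins. The class IIa members have little deacetylase activity of their own in vertebrates and act largely as scaffolds: they bind MEF2 transcription factors at their targets and bring in corepressor complexes that hold HDAC3. Kinases of the CaMK, PKD and salt-inducible families phosphorylate them, 14-3-3 proteins then hold them in the cytoplasm, and MEF2 targets are released. In human cells cytosine methylation is usual within gene bodies and usually absent from CpG-rich start sites of genes in use. A MeDIP peak therefore says where methylated cytosines are dense, and says nothing of how much RNA the gene makes.

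Start-site windows of RefSeq (GRCh38.p14, 250 bases before to 50 after a start site) were matched for 3 of the 4 genes, HDAC4, HDAC7 and HDAC9. HDAC4 had 5 such windows, and 3 of them are printed because they show where peaks did and did not lie. They are given 5′ to 3′ on the minus strand, on which HDAC4 is transcribed, with each CpG, the site of methylation, in capitals. The first is the start site at the 5′ end of the gene at chr2:239401600-239401899, the second a start site 126.9 kb into the gene at chr2:239274732-239275031, and the third 134.1 kb into it at chr2:239267465-239267764.
HDAC4 5′ end: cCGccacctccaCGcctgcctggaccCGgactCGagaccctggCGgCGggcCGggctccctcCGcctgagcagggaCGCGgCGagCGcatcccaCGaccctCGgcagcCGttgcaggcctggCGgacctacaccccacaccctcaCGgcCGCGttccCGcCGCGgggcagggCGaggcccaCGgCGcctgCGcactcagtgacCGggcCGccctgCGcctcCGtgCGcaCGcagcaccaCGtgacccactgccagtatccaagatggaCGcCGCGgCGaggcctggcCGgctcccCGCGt
HDAC4 internal at 126.9 kb: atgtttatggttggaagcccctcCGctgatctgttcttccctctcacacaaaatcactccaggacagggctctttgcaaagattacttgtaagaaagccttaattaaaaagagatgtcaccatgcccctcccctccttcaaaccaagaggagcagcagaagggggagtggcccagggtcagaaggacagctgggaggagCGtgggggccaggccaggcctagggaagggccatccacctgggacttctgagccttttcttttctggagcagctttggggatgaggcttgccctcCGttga
HDAC4 internal at 134.1 kb: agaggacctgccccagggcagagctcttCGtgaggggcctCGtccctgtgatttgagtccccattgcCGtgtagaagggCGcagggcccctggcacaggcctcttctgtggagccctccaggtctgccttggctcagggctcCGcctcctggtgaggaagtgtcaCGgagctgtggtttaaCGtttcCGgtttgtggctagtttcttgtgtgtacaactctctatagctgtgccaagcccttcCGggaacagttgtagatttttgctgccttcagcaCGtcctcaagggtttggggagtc
The 5′ window has 40 CpG sites, which 7.63% of all 34961 windows reach, and no list had a peak in it. That is the usual case, since 7.23% of all windows had a peak in any list, from 0.661% in WT to 4.63% in EV. The printed internal windows have 3 and 10 CpG sites, below the median of 14. The first internal window was touched by a peak in EV alone, with a fold enrichment of 3.51. The other was touched by a peak in K rep KO alone, with a fold enrichment of 3.05. The remaining HDAC4 windows, 128 and 103.1 kb into the gene with 10 and 5 CpG sites, had no peak in any list. The letters CG, the same on both strands, occur in 96.1% of all windows.

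HDAC4 carries 4 microRNA genes inside its body, and the hairpin of MIR4441 is printed because it lay under the only HDAC4 region with a peak in all 5 lists. It stands on the minus strand at chr2:239085827-239085926, 315.7 kb from the 5′ end of HDAC4, and its 4 CpG sites are in capitals.
MIR4441 hairpin: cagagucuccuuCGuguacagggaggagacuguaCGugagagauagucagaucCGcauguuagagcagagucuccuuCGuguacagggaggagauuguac
A stretch of 29 bases stands in it at 2 places without a mismatch, from positions 1 and 66, counted from the 5′ end. The labels do not say how reads fitting more than 1 place were handled. At least 1 CpG occurs in 64.2% of the 1558 hairpins, and 4 or more in 16.9%. A peak in every list covered 4 of the 1558, or 0.257%. MIR4269 was touched by a peak in K non-rep KO alone, and MIR4440 and MIR2467 by none.

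On chromosomes 1 to 22 and X the lists held 53919 peaks in K-KD, 59098 in K rep KO, 53396 in K non-rep KO, 87815 in EV and 30732 in WT. Read from the lists, the immunoprecipitated libraries had 0.75 to 0.943 times the depth of EV, K non-rep KO being the lowest, and WT had 0.885 times. WT stood apart: it had the fewest peaks and the widest, with a median of 748 bp, against 505 to 522 bp in the other lists. The ratios of the knockouts over WT are therefore given with EV in its place too for HDAC4 and HDAC5. Other results that rest on WT are given with WT only.

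HDAC4 (chromosome 2, 239048168 to 239401649) held 37 peaks in K-KD, 40 in K rep KO, 33 in K non-rep KO, 74 in EV and 2 in WT. EV was the highest list, the 3 perturbed lists lay close together, and WT stood far below all of them. The peaks covered 5.68% of the gene region in K-KD, 6.26% in K rep KO, 4.69% in K non-rep KO, 12.9% in EV and 0.237% in WT. By number of peaks HDAC4 ranked 13th of all protein-coding genes in K-KD, 11th in K rep KO, 16th in K non-rep KO and 6th in EV, but 1776th in WT. It is a long gene of 353 kb. Per length its rank was lower, and 10.8% of protein-coding genes had more peaks per kb in EV. It held 20.7 peaks per 100 kb in EV, where protein-coding genes together had 4.19. In WT it held 0.559 peaks per 100 kb, where protein-coding genes together had 1.10.

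**Figure D1:**
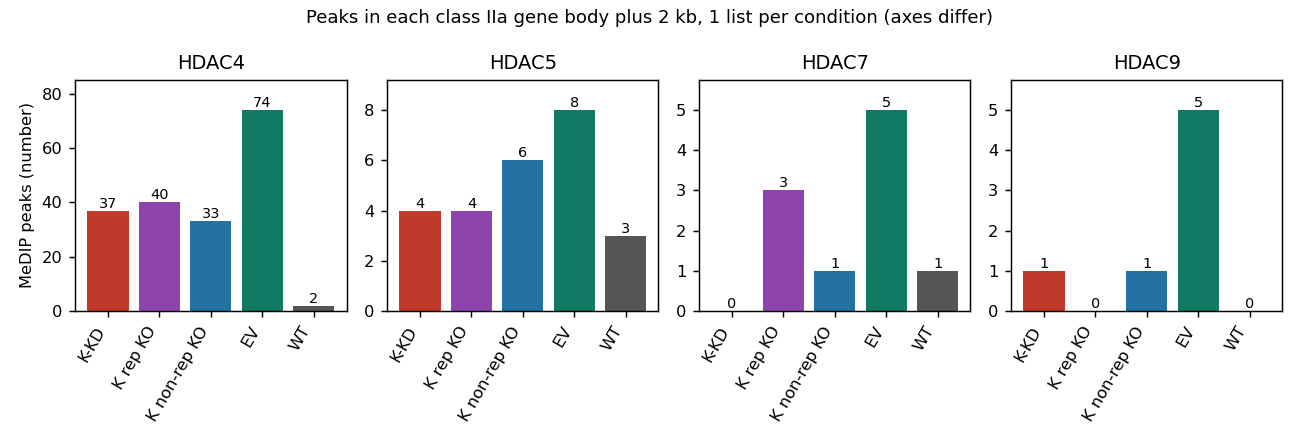
Number of MeDIP peaks (vertical axis, scale differs between panels) in the gene body plus 2 kb of HDAC4, HDAC5, HDAC7 and HDAC9 for each of the 5 lists. HDAC4 held 33 to 74 peaks in every list but WT, where it held 2; the other genes held 0 to 8.

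K-KD held 37 HDAC4 peaks, against 74 in EV, a ratio of 0.50 (exact 95% interval 0.328 to 0.752). Such intervals, here and below, cover counting error only and are too narrow, because neighbouring peaks are not independent. The whole K-KD list was 0.614 times as long as the EV list. A gene is here called higher or lower in a comparison where its ratio of (peaks + 1), divided by the ratio of the list lengths, is at least 2 or at most 0.5, among genes with at least 10 peaks in the lists compared. By that rule 3.65% of 2574 genes were higher in K-KD and 4.35% lower. HDAC4 was neither, at 0.825.

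K rep KO held 40 HDAC4 peaks, against 2 in WT, a ratio of 20.0 (5.19 to 171), while the whole list was 1.92 times as long. K non-rep KO held 33, against the same 2 in WT, a ratio of 16.5 (4.22 to 142), with a list 1.74 times as long. HDAC4 was called higher in both, as were 14.7% of 1133 genes in K rep KO, where 4.32% were lower, and 13.3% of 1002 genes in K non-rep KO, where 3.79% were lower. These comparisons share the WT list and HDAC4 was chosen from them, so nothing is read from the calls. EV held 37.0 times the HDAC4 peaks of WT (9.89 to 311). In that comparison 16.9% of 1906 genes were called higher, HDAC4 among them, and 8.6% lower.

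With EV in place of WT the direction turned. K rep KO then stood at 0.541 (0.358 to 0.805) and K non-rep KO at 0.446 (0.287 to 0.681) of the 74 EV peaks. Relative to list length these were 0.812 and 0.746 by the (peaks + 1) ratio, and HDAC4 was not called. Against EV, 3.06% of 2682 genes were called higher and 5.78% lower in K rep KO, and 2.87% of 2541 genes higher and 5.27% lower in K non-rep KO. Between the knockouts, K rep KO held 40 peaks and K non-rep KO 33, a ratio of 1.21 (0.745 to 1.98), with 4.63% of 1749 genes called higher and 3.54% lower, and HDAC4 not among them.

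By −log10 q, though not by fold enrichment in each list, a smaller share of HDAC4 peaks than of all peaks was strong in every list but WT. A −log10 q of 5 or more was reached by 16.2% of the HDAC4 peaks in K-KD, where 32.2% of all peaks reached it. In K rep KO it was 22.5%, against 40.6% of all peaks, in K non-rep KO 24.2%, against 34.3%, and in EV 29.7%, against 43.1%. The median HDAC4 peak had a fold enrichment of 3.85 in K-KD, 4.00 in K rep KO, 4.39 in K non-rep KO and 4.12 in EV. A fold enrichment of 4 or more was reached by 45.9% of HDAC4 peaks in K-KD, against 53.4% of all peaks, and by 50% in K rep KO, against 63.0%. In K non-rep KO it was 60.6%, against 60.4%, and in EV 58.1%, against 58.7%, so HDAC4 peaks and all peaks lay close together there. Both WT peaks passed a −log10 q of 5, with fold enrichments of 3.75 and 5.49.

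Fragment numbers were worked out for all 186 HDAC4 peaks from fold enrichment and −log10 p. The summit of the median HDAC4 peak held 9 fragments in K-KD, 9 in K rep KO, 9 in K non-rep KO and 11 in EV, and the lowest in each of these lists held 6. The WT summits held 14 and 21 fragments. A WT peak at the genome-wide background needed 6 fragments. At the summits of 14 and 21 fragments the WT background was higher, 1.73 and 4.87 fragments, against 1.29 genome-wide. There 6 fragments need not have been enough. Summits of 14 fragments or more were found at 3 HDAC4 peaks in K-KD, 4 in K rep KO, 3 in K non-rep KO and 13 in EV. Most HDAC4 peaks thus rested on few fragments, and a peak missing from a list is not shown to be unmethylated there.

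The peaks lay along the whole gene body and none in the flanks alone. Between the 5′ end and the first peak there were 15808 bp in K-KD, 9388 in K rep KO, 10392 in K non-rep KO, 9342 in EV and 169623 in WT. At the other end, the last peak ran past the gene end in K-KD and in K non-rep KO, and stopped 4959 bp short of it in K rep KO, 311 in EV and 37587 in WT. The nearest peak outside the region lay 3433 bp beyond its 5′ border, in EV, and 5003 bp beyond its 3′ border, in K-KD. With the gene divided into 10 segments of 35.3 kb, EV had 4 to 13 summits in every segment. The last 2 segments, at the 3′ end, held 11 of 36 summits in K-KD, 8 of 40 in K rep KO, 11 of 33 in K non-rep KO and 24 of 74 in EV. The longest gap between neighbouring peaks was 48655 bp in K-KD, 32205 in K rep KO, 58216 in K non-rep KO and 22092 in EV, and the only 2 WT peaks lay 145423 bp apart.

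**Figure D2:**
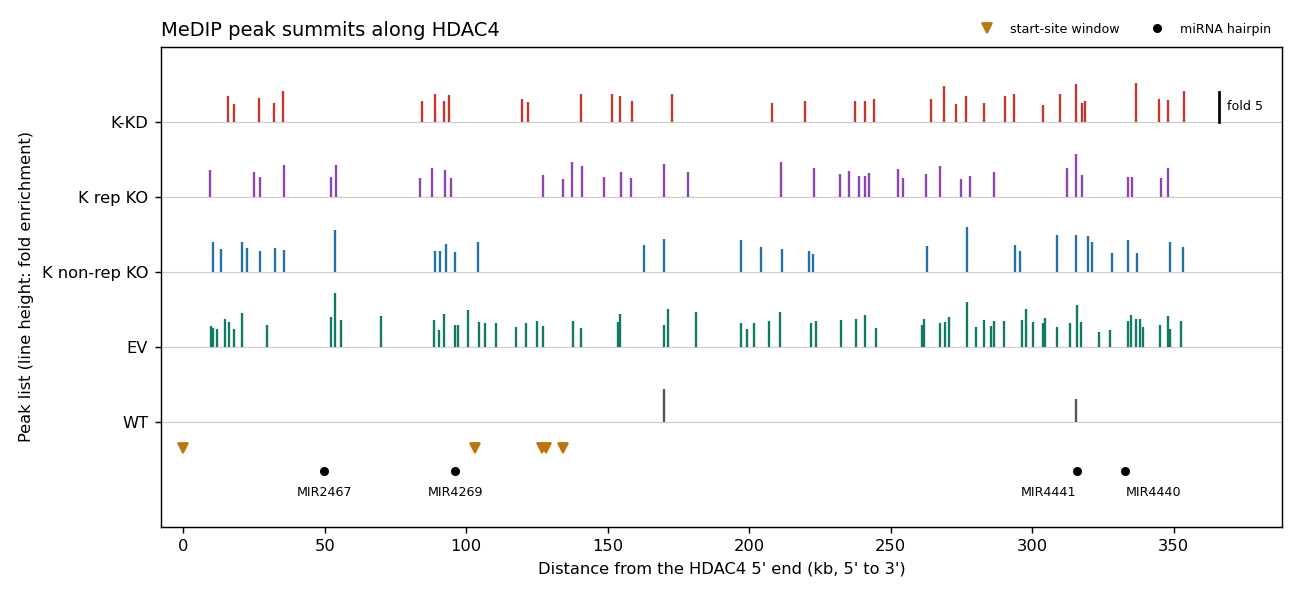
Summits of the MeDIP peaks along HDAC4, from its 5′ end on the left (horizontal axis in kb), 1 row per list, with line height giving the authors' fold enrichment (scale bar, fold 5). Triangles mark RefSeq start-site windows and dots microRNA hairpins. Summits spread over the gene in every list but WT, which has 2, and the first peak from the 5′ end, in EV, lies 9342 bp from it.

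Merged where they overlapped by at least 1 bp, the HDAC4 peaks of the 5 lists made 115 distinct regions with a median length of 561 bp. Of these, 70 had a peak in 1 list (60.9%), 27 in 2 lists, 13 in 3, 4 in 4 and 1 in all 5 (0.870%). Over all 144156 regions of these chromosomes, 56.5% were in 1 list and 7.97% in all 5. A region in all 5 needs a WT peak, and HDAC4 was chosen for holding few. Its low share in all 5 thus follows from the choice. An EV peak was present in 72 of the HDAC4 regions, and 34 of those were in EV alone. A peak in a perturbed list and in neither EV nor WT was found in 43 regions. Both knockouts had a peak in 12 regions, 6 of which also had one in K-KD. Peaks of a region can be joined through a peak of another list without overlapping each other. Only 10 K rep KO peaks overlapped a K non-rep KO peak directly.

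The region in all 5 lists is the one over MIR4441, at chr2:239085252-239086864. Its fold enrichment was 6.27 in K-KD, 7.22 in K rep KO, 6.17 in K non-rep KO, 7.06 in EV and 3.75 in WT. The summits held 15, 16, 16, 22 and 21 fragments in that order, with EV and WT the highest. The background set by the peak caller was 1.55, 1.35, 1.75, 2.26 and 4.87 fragments in the same order, highest in WT. The other WT peak belonged to a region at chr2:239231678-239232049 of 372 bp, with no K-KD peak. There the summits held 33 fragments in K rep KO, 20 in K non-rep KO, 22 in EV and 14 in WT, with fold enrichments of 5.50, 5.49, 3.67 and 5.49. The background there was 5.19 fragments in K rep KO, 2.83 in K non-rep KO, 5.27 in EV and 1.73 in WT. Its 33 fragments in K rep KO were the highest summit of any HDAC4 peak.

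Regions with a peak in every list but WT lay 348.1, 92.1 and 88.0 kb from the 5′ end. At 92.1 and 88.0 kb the peaks of the knockouts did not overlap each other and were joined by an EV peak. At 348.1 kb, near the 3′ end, the fold enrichment was 3.66 in K-KD, 4.79 in K rep KO, 4.95 in K non-rep KO and 5.16 in EV. The regions 35.5 and 26.6 kb from the 5′ end had a peak in K-KD and both knockouts and none in EV or WT. At 35.5 kb the fold enrichment was 5.13 in K-KD and 5.26 in K rep KO, with 3.59 in K non-rep KO. The HDAC4 peak with the highest fold enrichment, 9.04 in EV with 21 fragments, lay 53.5 kb from the 5′ end. Both knockouts had a peak at that place, at 5.35 for K rep KO and 6.93 for K non-rep KO, whereas K-KD and WT had none.

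Sharing is given next for the HDAC4 peaks of each list, beside that of all peaks of the list, without a test. Of the 37 K-KD peaks 18 overlapped an EV peak (48.6%, Wilson 95% interval 33.4 to 64.1%), where 58.3% of all K-KD peaks did. Of the 40 K rep KO peaks 10 overlapped one of K non-rep KO (25.0%, 14.2 to 40.2%), where 43.7% of all did. Of the 33 K non-rep KO peaks 10 overlapped one of K rep KO (30.3%, 17.4 to 47.3%), where 48.8% of all did. Of the 74 EV peaks 20 overlapped one of K-KD (27.0%, 18.2 to 38.1%), where 35.2% of all did. The HDAC4 share was the lower one in each of the 12 pairings among K-KD, both knockouts and EV, but the interval held the list-wide share in some of them, such as K-KD with EV. For EV peaks with a WT peak the shares were 2.70% (0.744 to 9.33%) in HDAC4 and 24.4% in the whole list. HDAC4 was chosen for its few WT peaks, so this low share follows from the choice and is no result on sharing. Both WT peaks of HDAC4 overlapped a peak in EV and in either knockout.

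**Figure D3:**
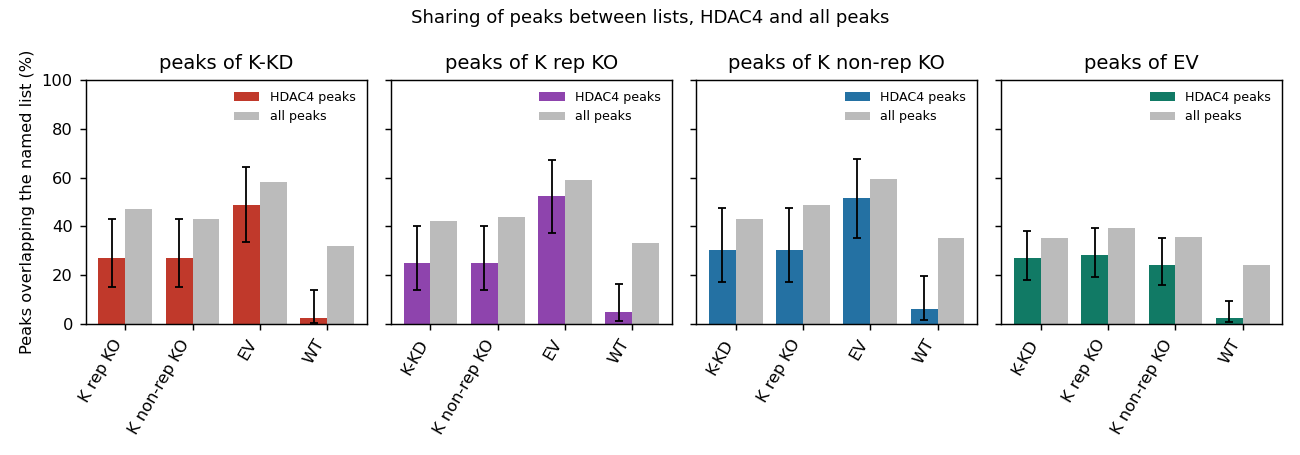
Percent of peaks of a list (panel) that overlap a peak of another list (horizontal axis), for HDAC4 peaks (coloured, with Wilson 95% intervals that cover counting error only) and all peaks of the list (grey). For HDAC4 it was 25.0% to 52.5% in the 3 perturbed lists when set against each other and EV, below the grey bar each time.

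Among the EV peaks of HDAC4, the median −log10 q stepped up with the number of perturbed lists that shared them. Of the 74, 34 overlapped no peak of K-KD, K rep KO or K non-rep KO and had a median −log10 q of 3.44. The 25 peaks that overlapped a peak in 1 of these lists had a median of 3.92, the 11 in 2 lists 5.16 and the 4 in all of them 6.95. The ranges overlapped, as peaks in EV alone reached 9.01. Over all EV peaks the medians ran the same way, at 3.69, 4.21, 5.04 and 9.02. Peaks shared with none made up 45.9% of the HDAC4 peaks, against 41.1% of all EV peaks, and peaks shared with all of them 5.41%, against 17.5%.

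**Figure D4:**
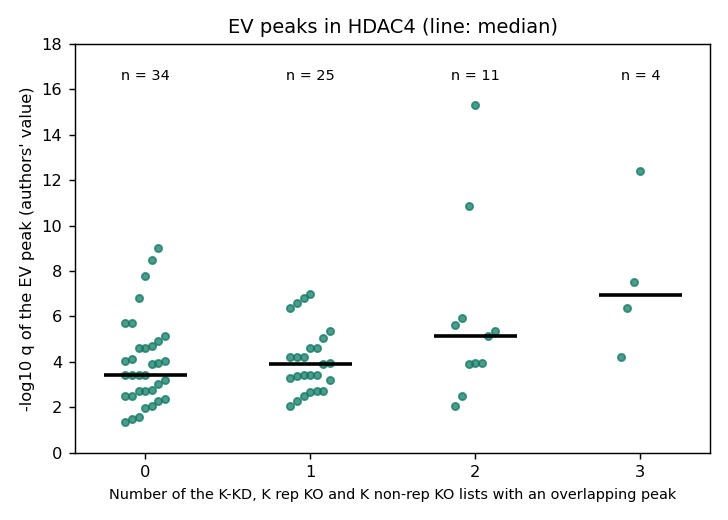
The authors' −log10 q of each EV peak in HDAC4 (vertical axis), by the number of perturbed lists with an overlapping peak (horizontal axis). Horizontal lines are medians, at 3.44, 3.92, 5.16 and 6.95 from left to right, and the columns overlap.

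HDAC4 held more peaks per length than the DNA on either side in every list but WT. By summits in the gene body, K-KD had 10.2 per 100 kb, against 4.3 in the 1 Mb past the 3′ end and 2.7 in the 1 Mb before the 5′ end. K rep KO had 11.3, against 4.2 and 3.2, K non-rep KO 9.34, against 4 and 2.7, and EV 20.9, against 8.3 and 5.6. In WT the order was the other way, with 0.566 in HDAC4, against 1 and 1.3, though the first number rests on 2 peaks. TWIST2, a transcription factor gene of mesenchymal cells and the nearest protein-coding gene past the 3′ end, held 5 peaks in K-KD, 4 in K rep KO, 4 in K non-rep KO, 9 in EV and 2 in WT. NDUFA10, a subunit gene of respiratory complex I and the nearest on the other side, held 6, 5, 10, 10 and 3 in the same order. PER2, a circadian clock gene, held 5, 5, 3, 4 and 1. ESPNL held 5, 3, 4, 8 and 3, KLHL30 4, 5, 2, 4 and 0, and SCLY 1, 3, 3, 5 and 1. These are shorter genes, with 32948 bp for ESPNL and 14280 bp for KLHL30. With 2 kb flanks, KLHL30 held more peaks per length than HDAC4 in every list but WT, and ESPNL in every list but K rep KO. A higher density than the 1 Mb on either side was thus not particular to HDAC4. The remaining 9 of the 15 protein-coding genes within 1 Mb, which are ERFE, ILKAP, HES6, TRAF3IP1, ASB1, OR6B2, OR6B3, COPS9 and OTOS, held 0 to 6 in any list.

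**Figure D5:**
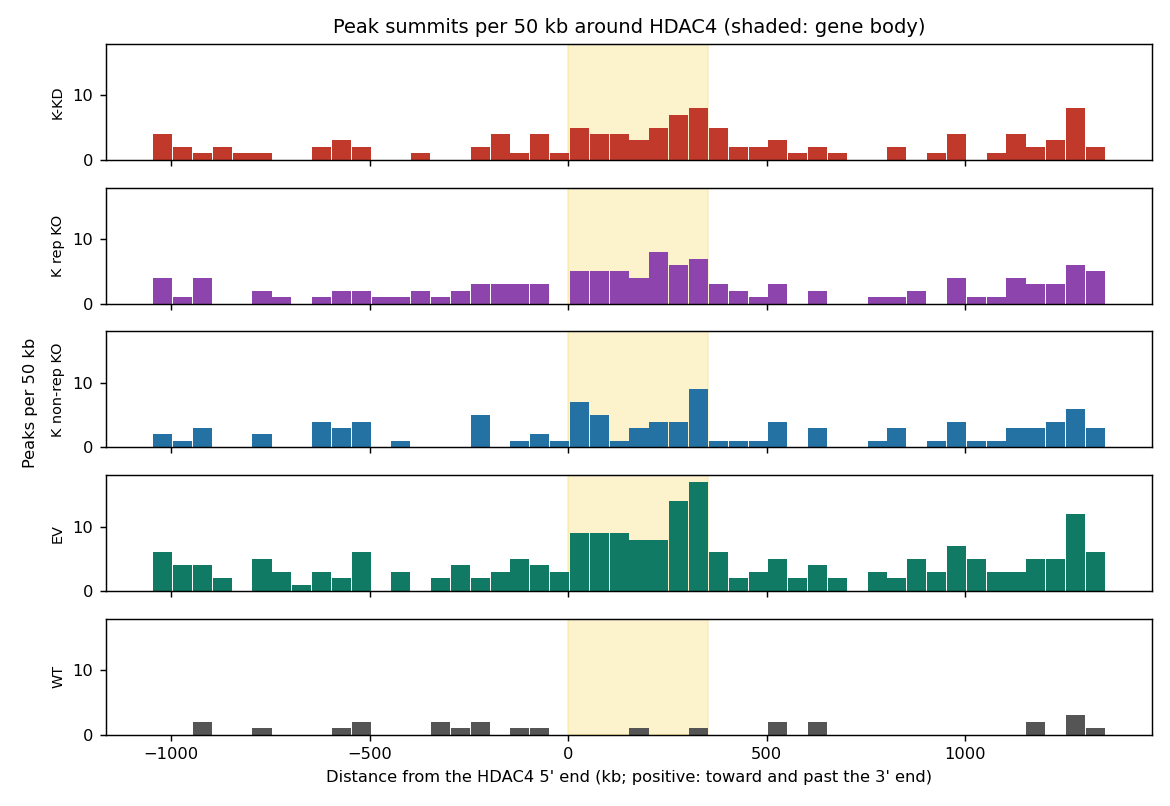
Peak summits per 50 kb (vertical axis) from 1 Mb before the 5′ end of HDAC4 to 1 Mb past its 3′ end (horizontal axis in kb, gene body shaded), 1 panel per list. Per 100 kb, the gene body averaged 20.9 summits in EV, against 8.3 past the 3′ end and 5.6 before the 5′ end, though single bins outside it reach its height in K-KD; WT has 2 peaks in it.

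HDAC5 (chromosome 17, 44076753 to 44123641) differs in size from HDAC4, with 46.9 kb. In mice it restrains growth of the stressed heart. It held 4 peaks in K-KD, 4 in K rep KO, 6 in K non-rep KO, 8 in EV and 3 in WT. WT was again lowest and EV highest, but by small numbers. The ratio was 0.50 for K-KD over EV (0.110 to 1.87), 1.33 for K rep KO over WT (0.226 to 9.10), 2.00 for K non-rep KO over WT (0.427 to 12.4) and 2.67 for EV over WT (0.640 to 15.6), and each interval held 1. The direction of K rep KO over WT turned, to 0.333, with peaks of −log10 q of 5 or more. With EV in place of WT both knockouts lay below the control. K rep KO then stood at 0.50 (0.110 to 1.87) and K non-rep KO at 0.75 (0.214 to 2.46). The HDAC5 peaks merged to 12 regions, 2 with a peak from every list and 9 in 1 list.

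The stronger of these HDAC5 regions, at chr17:44125085-44126949, began 1444 bp past the higher-coordinate end of the gene and ran beyond the 2 kb border. Its summit held 37 fragments in K-KD, 48 in K rep KO, 49 in K non-rep KO, 86 in EV and 54 in WT, more than any HDAC4 summit. Its fold enrichment was 5.27 in K-KD, 6.03 in K rep KO, 10.1 in K non-rep KO, 11.2 in EV and 4.03 in WT. The other, at chr17:44099330-44102886 inside the gene, had a highest fold enrichment of 4.57 in K-KD, 3.29 in K rep KO, 4.44 in K non-rep KO, 9.53 in EV and 6.86 in WT. WT was the second highest list there. These values are not all from the same place, as a WT peak of 3141 bp joined the region. The K rep KO peaks in it, at 44101203-44101495 and 44102084-44102456, overlapped the WT peak and no peak of another list.

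HDAC7 (chromosome 12, 47782722 to 47821344), which in mice keeps blood vessel walls intact, held 0 peaks in K-KD, 3 in K rep KO, 1 in K non-rep KO, 5 in EV and 1 in WT. Its start-site window of 33 CpG sites had no peak in any list, as is usual (7.23% of all windows had one). A region at chr12:47795405-47797189 had a peak in K rep KO, K non-rep KO and EV, with summits of 10, 8 and 11 fragments. The peaks of the knockouts did not overlap each other there and were joined by the EV peak. For K-KD over EV the 0 peaks against 5 gave a ratio of 0 with an interval up to 1.09.

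HDAC9 (chromosome 7, 18086825 to 19002416), a repressor of muscle genes in mice, is the longest member at 916 kb and held the fewest peaks. It had 1 in K-KD, 0 in K rep KO, 1 in K non-rep KO, 5 in EV and 0 in WT. No 2 of these 7 peaks overlapped, so all 7 regions were in 1 list. In EV it held 0.544 peaks per 100 kb, against 20.7 in HDAC4, and 66.7% of protein-coding genes were denser. The HDAC9 window at the 5′ end has 41 CpG sites and, like most windows, no peak in any list. An EV peak at chr7:18087490-18087976 lay closest to it, 616 bp away.

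The other genes of the pathway are given from lists written with earlier results of these data known. Of 18 partners and targets of class IIa enzymes, 17 held a peak in K-KD or EV, and 15 of them held fewer in K-KD (88.2%), against 67.0% of all protein-coding genes with a peak. In K rep KO 15 of 17 held more than in WT (88.2%), against 73.5% of all genes, and in K non-rep KO 14 of 15 (93.3%), against 70.4%. Genes with equal numbers in both lists stay in these totals and lower the shares. Between K-KD and EV they were 0 of the 17 partners and targets, against 2693 of all 14544 genes. The median (peaks + 1) ratio was 0.571 for K-KD over EV, against 0.667 for all genes. For either knockout over WT it was 2, the same as for all genes. NCOR1, a corepressor gene, held 3 peaks in K-KD, 5 in K rep KO, 3 in K non-rep KO, 8 in EV and 3 in WT. CTBP1 and CTBP2 are corepressor genes too. CTBP1 held 12 in K-KD, 13 in K rep KO, 11 in K non-rep KO, 16 in EV and 4 in WT, and CTBP2 held 14, 23, 6, 25 and 3 in the same order. Among the MEF2 genes, MEF2D held 4, 2, 3, 2 and 2 in K-KD, K rep KO, K non-rep KO, EV and WT, and MEF2A 4, 2, 1, 5 and 0. In that order of lists TBL1X, of the complex of NCOR1, held 10, 5, 6, 14 and 3, and its relative TBL1XR1 4, 6, 6, 9 and 3. XPO1, the nuclear export receptor, held 3, 3, 6, 6 and 4, RUNX1 5, 4, 4, 3 and 1, and CBX5, which encodes a heterochromatin protein, 2, 5, 3, 5 and 1.

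Of 25 kinase and anchor genes, 14 of the 21 with a peak held fewer in K-KD than in EV (66.7%, against 67.0% of all genes). In K rep KO 10 of 15 held more than in WT (66.7%, against 73.5%), and in K non-rep KO 16 of 21 (76.2%, against 70.4%). CAMK1D, a calcium-dependent kinase gene, held 15 peaks in K-KD, 19 in K rep KO, 18 in K non-rep KO, 40 in EV and 10 in WT. In that order of lists CAMK2B held 1, 6, 3, 9 and 0, CAMK2G 0, 3, 1, 6 and 0, and PRKD2 3, 5, 2, 7 and 2. SIK3 held 1, 1, 3, 7 and 2, MARK2 5, 3, 6, 8 and 2, MARK3 6, 9, 10, 11 and 7, and YWHAE, a 14-3-3 gene, 3, 4, 4, 5 and 6, with WT the highest list.

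The other 7 histone deacetylase genes held 13 peaks in K-KD, 18 in K rep KO, 17 in K non-rep KO, 20 in EV and 7 in WT in all. HDAC1 held 6, 5, 4, 7 and 4 in that order of lists, and HDAC8 3, 7, 5, 3 and 1. HDAC3, the catalytic partner of the class IIa enzymes, held 0, 1, 3, 1 and 0, and HDAC6 none in any list. The 7 sirtuin genes, NAD-dependent deacetylases, held 17 in K-KD, 17 in K rep KO, 16 in K non-rep KO, 29 in EV and 8 in WT in all. Of these SIRT4 held 7, 9, 5, 9 and 5, SIRT3 3, 1, 3, 6 and 1, and SIRT1 3, 2, 2, 4 and 1.

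Other genes had shares of peaks by list near those of HDAC4. Of its peaks 19.9% came from K-KD, 21.5% from K rep KO, 17.7% from K non-rep KO, 39.8% from EV and 1.08% from WT. Among 437 other protein-coding genes with at least 50 peaks over the lists, these 5 shares lay nearest to those of RADIL (Euclidean distance 0.0296), COL5A1 (0.0315), BAIAP2 (0.0417), CCDC57 (0.0423) and PTPRS (0.0428). The WT shares of these genes were 3.33%, 2.94%, 1.01%, 3.70% and 2.60% in that order. Only BAIAP2 was thus as low in WT as HDAC4. COL5A1, a fibrillar collagen gene, held 18 peaks in K-KD, 23 in K rep KO, 18 in K non-rep KO, 40 in EV and 3 in WT. BAIAP2 held 23, 21, 17, 37 and 1 in the same order. Of the 438 genes of that size, HDAC4 included, 57 held 2 or fewer WT peaks (13.0%). In 7 of the 438, HDAC4 among them, the EV number was at least 37 times the WT number, the ratio of HDAC4 itself. A gene without a WT peak meets this with any number of EV peaks.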

How the data were processed

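MeDIP-seq peak lists of 5 conditions were used; lists of input libraries were not used here. The submitters' processing notes list Bowtie2, MACS2 and deepTools, with GRCh38 as build. Versions, settings, the caller's control and any pooling are not stated in them. Of the values the authors deposited for each peak, fold enrichment is a ratio of summit to background as the caller set it, p and q are −log10 values, the score is 10 times the −log10 q as a whole number, and a summit position is given. They are the authors' and describe peaks within a list only. The list named K-KD was taken as the KD sample; 1 further list matches no sample label and was not used. Peak names inside both knockout lists carry other prefixes than the lists.

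Other chromosomes than 1 to 22 and X, with 3.56% to 5.83% of a list, were set aside. Gene positions came from RefSeq (GRCh38.p14). Coordinates are 1-based. Fragments at a summit were solved as whole numbers from fold, taken as (pileup + 1)/(background + 1), and from p, taken as the Poisson chance of a higher pileup, to within 0.001 of the −log10 p; 99.99% to 100.0% of the peaks tried had a solution. Relative depth is the commonest background over the shortest peak length. Conditions were paired in the order in which the series names them. Exons, introns and the base composition of peaks were not analysed here. Members and lists were chosen with earlier results of these data known. Genes named are the members, protein-coding genes within 1 Mb of HDAC4, genes of the lists with at least 10 peaks in all, and the 5 nearest in pattern; HDAC3, HDAC6 and 9 small neighbours were added for completeness. One gene of the partner list is counted but not reported here. Counting, merging and solving were tested on simulated data (Python 3.11.15, pandas 2.3.3, SciPy 1.17.1).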

Additional observations from a re-analysis of the deposited data

Results flagged for a closer look

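HDAC4 and HDAC5 are listed because K-KD lay below its control and both knockouts above theirs. Most genes had these directions: 67.0% of protein-coding genes with a peak held fewer in K-KD than in EV, 73.5% held more in K rep KO than in WT, and 70.4% more in K non-rep KO than in WT. For HDAC4 the ratio was 0.50 in K-KD over EV, 20.0 in K rep KO over WT and 16.5 in K non-rep KO over WT. Whole lists had ratios of 0.614, 1.92 and 1.74 in the same order. For HDAC5 it was 0.50, 1.33 and 2.00 in that order, and relative to list length, by the (peaks + 1) ratio, 0.905, 0.650 and 1.01. The HDAC5 ratio of K rep KO over WT was below 1 in 4 of 6 alternatives, as given under the processing alternatives. With EV in place of WT, K rep KO stood at 0.541 in HDAC4 and 0.50 in HDAC5, and K non-rep KO at 0.446 and 0.75. Each condition has 1 list, so these differences were not tested.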

How the results depend on the processing

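Chosen after seeing the data, EV in place of WT turned the HDAC4 ratio to 0.541 for K rep KO and 0.446 for K non-rep KO. With −log10 q of 5 or more, HDAC4 stood at 0.273 for K-KD over EV (whole lists 0.458), 4.50 for K rep KO over WT (1.74), 4.00 for K non-rep KO over WT (1.33) and 11.0 for EV over WT (2.75), and there were 31 distinct regions, 15 of them in EV alone. With fold enrichment of 4 or more there were 70 regions, and 0 in every list. With lists shortened to the same length, so that whole lists have a ratio of 1, HDAC4 stood at 0.875 for K-KD over EV, 7.5 for K rep KO over WT, 8 for K non-rep KO over WT and 8 for EV over WT, and there were 43 regions, 8 of them in EV alone. As reported, the K-KD over EV ratio divided by that of the whole lists was 0.814. The filters and shorter lists leave fewer peaks by construction. Counting the 7.5, 8 and 11.0 just given for K rep KO, K non-rep KO and EV over WT, 34 alternatives for HDAC4 stayed within the counting interval of a ratio or within 1.5 times a count, and these intervals are wide. Of the others for HDAC4, 11 moved outside these limits and 2, with EV in place of WT, reversed. For the other members 62 of 63 stayed within them, but HDAC5 in K rep KO over WT turned to 0.333 with −log10 q of 5 or more, with fold enrichment of 4 or more and with lists of the same length, turned to 0.408 by covered length, and was 1 with 10 kb flanks. HDAC4 in K rep KO over K non-rep KO was 0.938 with lists of the same length. Ratios to a list with 0 peaks gave no value. No paired analysis was possible because each condition had 1 list. The median HDAC4 summit held 9 to 11 fragments outside WT, and how far depth bears on the calls was not tested.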
